A study of Homo sapiens with 6 samples.

Results

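The genes of distal chromosome 7q are the genes of human chromosome 7 that start at 130 Mb or above in the GRCh37 build (hg19) and that had at least 10 counts summed over the 6 RNA-seq libraries. This stretch was picked with the ratios of sgZNF146 to EV along the chromosome already known, so the values of that contrast chose the members and are given as a description, without a test. The annotation placed 601 genes there, of which 254 reached 10 counts. WDR91, ATP6V0E2, MRPS33 and NDUFB2 were set aside by name, as was ATP6V0A4, which lay under the minimum, and 2 small nuclear or nucleolar RNA genes were left out by class. The 248 genes that remained, of 57773 in the count table, were 139 protein-coding genes, 64 long non-coding RNA genes, 33 pseudogenes, 11 genes of the class misc_RNA and 1 microRNA gene. They ran from CEP41, which starts at position 130033612, to VIPR2, which ends at position 158937559.

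The study asked what happens to gene expression when ZNF146 or ZNF507, a pair of zinc finger proteins that bind LINE-1 retrotransposons, is disrupted by Cas9. HEK293 cells, a human embryonic kidney line transformed with adenovirus DNA, received plasmids (PX459) that carry Cas9 with 4 guides against ZNF146 (sgZNF146), Cas9 with 4 guides against ZNF507 (sgZNF507), or the same plasmid as an empty vector (EV). All 3 groups were selected with puromycin for 36 h and then grown until 2 weeks had passed. RNA came from 2 biological replicates per group, and the libraries were ribosome-depleted, stranded and paired-end. No isolation of single clones is described, so each library may mix edited and unedited cells. The paper reports western blots in which either protein could barely be detected in the cells targeted for it. It also reports frequent indels at the guide sites in RNA reads, absent from control cells. HEK293 has an abnormal number of chromosomes, and bulk RNA gives 1 level per gene over all cells, copies and alleles, so fewer cells with a transcript and less of it per cell cannot be told apart.

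The distal end of 7q holds genes of unrelated function that share a place on the chromosome. Among them are EZH2, the methyltransferase of Polycomb repressive complex 2, BRAF, a kinase of the MAP kinase cascade, KMT2C, a histone H3 methyltransferase, and a cluster of zinc finger genes around ZNF282, ZNF212, ZNF783 and ZNF777. Most of these genes have a promoter of their own, with protein-coding genes, long non-coding RNAs and pseudogenes interleaved on both strands.

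The target sequences of the study lie in coding exons on chromosome 19 and are shown first because they define the groups. Each is given as the 20 bases read next to the motif NGG that Cas9 requires, with that motif in capitals as the last 3 bases. The listed sequences are followed by NGG only when read on the opposite strand, a reading chosen after the adjacent bases were seen. The ZNF146 targets were the following.
ZNF146 guide 1, chr19:36727435-36727454, minus strand: gaaaatgctcatgctcagtgAGG
ZNF146 guide 2, chr19:36727932-36727951, plus strand: catcacttattgtacatgtgAGG
ZNF146 guide 3, chr19:36727356-36727375, plus strand: gccagcagagaatttacagtGGG
ZNF146 guide 4, chr19:36727736-36727755, plus strand: gagtgtggaaaaaccttcagTGG

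The 29.1 Mb of chromosome 7 from 130 Mb to the end were searched on both strands for sites next to NGG that resemble these targets. For the 4 ZNF146 guides there was 1 site with up to 3 mismatches and there were 2 with 4 mismatches. The rest of chromosome 7, which is longer at 130 Mb, held 4 and 25. For the 4 ZNF507 guides there were 0 and 5, beside 1 and 25 on the rest of chromosome 7, and these 5 sites are not printed. The 3 sites for ZNF146 guides are printed with their mismatches to the guide in capitals, and with the adjacent motif in capitals as the last 3 bases.
Guide 2, 3 mismatches, chr7:131731054-131731073, plus strand, intergenic: catcacttCttTtacatgtTAGG
Guide 1, 4 mismatches, chr7:133562851-133562870, minus strand, intron of EXOC4: gaaaatgctcTtgctcTgCAGGG
Guide 1, 4 mismatches, chr7:145055604-145055623, minus strand, intergenic: gaTaatgctcTtCcAcagtgGGG
These are letter matches in the reference genome, and whether any of them was cut is not measured by RNA counts.

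Library totals ranged from 22724439 to 28524025 counts, and the TMM factors, which scale for composition, from 0.970 to 1.02. Levels below are counts scaled to a common TMM-adjusted library size (CPM), which are not divided by gene length and so compare libraries and not genes. After a filter on low counts 22010 genes were tested, and differences are log2 fold changes from edgeR with their SE. ZNF507 stood at 72.0 and 75.5 CPM in EV and at 47.2 and 48.7 CPM in sgZNF507 (log2 fold change −0.62 ± 0.07 SE, adjusted p = 0.00195 by edgeR's quasi-likelihood test). ZNF146 stood at 115 and 105 CPM in EV and at 99.2 and 103 CPM in sgZNF146 (−0.13 ± 0.08 SE, adjusted p = 1.00 by edgeR), and an edit of the coding exon need not lower its RNA. Of the markers known for HEK293, VIM, CDH2, NEFM, PAX2, KRT8 and KRT18 were counted in all libraries. Of the markers of other cell types, HBB had 0 counts throughout, CD3E at most 1, PTPRC at most 5 and ALB at most 6, and COL1A1 had 1495 to 1933. The study carried out both the disruption and the sequencing in duplicate. Nothing in the labels ties the replicates to separate days, so p-values measure the spread between these libraries only.

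In sgZNF146 most distal 7q genes were lower than in EV by about the same small factor. Of the 248 members 202 passed the filter, and their median log2 fold change was −0.16, with 160 of 202 below 0, beside a median of −0.00 over all 22010 genes tested. Of the 202, 101 had a mean of 5 CPM or more over the 6 libraries, 90 of them protein-coding, and in these 96 of 101 were below 0 with a median of −0.18, a linear change of −11.6%. The middle 50% of those 101 fold changes lay between −0.21 and −0.12. In sgZNF507 the same 101 genes had a median of −0.00, with 54 of 101 below 0. The 46 members that were not tested, 11 of them protein-coding, 20 long non-coding, 12 pseudogenes, 2 misc_RNA and 1 microRNA gene, had 10 to 47 counts over all 6 libraries, too few for a ratio.

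No single member passed the test in the fit without a replicate block. At an adjusted p of 0.05 over all genes edgeR called 0 of 202 members in sgZNF146 against EV, where 0.0% of all genes were called, and 0 of 202 in sgZNF507 against EV, where 0.182% were called. At an unadjusted p of 0.05 there were 58 members in sgZNF146, 57 of them lower, beside 2.43% of all genes and 1.23% in the lower direction. That contrast chose the members, so nothing is read from this count. In sgZNF507 against EV, which did not choose them but shares the EV libraries, there were 6 members (2.97%), beside 3.39% of all genes, with 3 lower, beside 1.96%, and 3 higher, beside 1.44%. DESeq2 also called 0 at the adjusted threshold in both contrasts, and gave 36 and 2 members at an unadjusted p of 0.05. With the replicate number as a block edgeR called 4 members in sgZNF146 and 1 in sgZNF507, and DESeq2 called 0 and 1. No share over all genes is given here for DESeq2 or for the fits with a block, so nothing is read from these counts. What a replicate number marks is not given in the labels.

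The spread between libraries can be read from whether the groups overlap. Both sgZNF146 libraries lay below both EV libraries for 99 of 202 members, beside 14.6% of all tested genes, and above them for 10 of 202, beside 14.0%. Among the members of 5 CPM or more the counts were 68 of 101 below, beside 14.1% of genes at that level, and 1 of 101 above, beside 12.3%. These counts come from the contrast that chose the members. For sgZNF507 both libraries lay below both EV libraries for 25 of 202 members (12.4%), beside 15.3% of all tested genes, and above for 27 of 202 (13.4%), beside 14.0%. The shares in sgZNF507 were near the background in both directions.

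The difference did not begin at 130 Mb. The members just inside and the genes just outside that limit had like values. Outside, TMEM209, a nuclear envelope protein, had 32.1 and 29.9 CPM in EV and 31.2 and 31.0 CPM in sgZNF146 (log2 fold change 0.01), CPA4, a carboxypeptidase, had 1.28 and 1.92 CPM against 1.66 and 1.43 CPM (−0.06), and the long non-coding LINC03008 had between 2 and 14 counts in every library. Inside, CEP41, a centrosomal protein, had 17.7 and 18.8 CPM in EV, 17.4 and 18.8 CPM in sgZNF146 and 15.9 and 18.9 CPM in sgZNF507. ENSG00000270823, a long non-coding gene, had 15 to 25 counts in every library. COPG2, a coatomer subunit, had 24.1 and 24.99 CPM in EV, 23.7 and 26.0 CPM in sgZNF146 and 23.4 and 27.2 CPM in sgZNF507. EV and sgZNF146 overlapped in all 3 of the genes inside.

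Of the members of 5 CPM or more, the first 7 along the arm lay closer to EV than those after them. They were CEP41, COPG2, LINC-PINT, MKLN1, PODXL, CHCHD3 and EXOC4, and their median log2 fold change in sgZNF146 was −0.01, with 5 of 7 below 0 and 0 of 7 with both libraries below both EV libraries. LINC-PINT, a long non-coding RNA, had the lowest value of the 7 (−0.18 ± 0.15 SE), with 7.79 and 6.58 CPM in EV and 6.70 and 5.96 CPM in sgZNF146, so that its groups overlapped. At each replicate number sgZNF146 was the lower in LINC-PINT. MKLN1, a subunit of a ubiquitin ligase, had 70.6 and 63.8 CPM in EV and 63.5 and 64.7 CPM in sgZNF146. PODXL, a sialomucin of the cell surface, had 64.8 and 60.9 CPM in EV and 62.6 and 61.3 CPM in sgZNF146. CHCHD3, a protein of the mitochondrial cristae, had 71.3 and 66.9 CPM in EV and 67.1 and 69.7 CPM in sgZNF146. In these 3 genes EV and sgZNF146 overlapped.

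EXOC4, a subunit of the exocyst, is the last of these genes, at chr7:132937829-133751342 on the plus strand. It had 46.1 and 51.0 CPM in EV, 46.3 and 50.8 CPM in sgZNF146 and 49.1 and 51.5 CPM in sgZNF507, a log2 fold change of 0.00 ± 0.08 SE in sgZNF146. SLC35B4, a nucleotide sugar transporter of the Golgi, is the next gene of this level, at chr7:133974084-134001682 on the minus strand. It had 102 and 104 CPM in EV, 87.7 and 96.3 CPM in sgZNF146 and 96.8 and 108 CPM in sgZNF507. Both sgZNF146 libraries of SLC35B4 lay below both EV libraries (−0.16 ± 0.07 SE), while those of EXOC4 lay within the EV range.

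The place where the 7q genes of 5 CPM or more were best divided into a higher proximal and a lower distal group fell between these genes, which are 222742 bp apart. It was found from the sgZNF146 values themselves and is a description. Each sgZNF146 library set against the same EV mean gave the same place, so that these comparisons share their controls, with medians against the EV mean of −0.005 over the 267 genes before it and −0.18 over the 94 after it in replicate 1, and −0.02 and −0.17 in replicate 2. Within the lower stretch 91 of 94 members of 5 CPM or more were below 0 in sgZNF146 (median −0.18, a linear change of −11.9%), and 68 of 94 had both libraries below both EV libraries, beside 14.1% of all genes of that level, a count that the choice of the stretch fixes in part. In sgZNF507 the same 94 had a median of −0.00, with 49 of 94 below 0. The 4 genes that the rule set aside by name lie there too and had a median of −0.18, with 4 of 4 lower.

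The promoters of the genes on either side of this place are shown because the difference falls between them. They are taken from RefSeq (GRCh38.p14), 250 bases before to 50 bases after the transcription start, with capitals for matches on either strand to the TATA box TATAAA, to the CCAAT box CCAAT or to the GC box GGGCGG. Matches to different motifs may share end bases.
EXOC4, GRCh38.p14 chr7:133252828-133253127, plus strand: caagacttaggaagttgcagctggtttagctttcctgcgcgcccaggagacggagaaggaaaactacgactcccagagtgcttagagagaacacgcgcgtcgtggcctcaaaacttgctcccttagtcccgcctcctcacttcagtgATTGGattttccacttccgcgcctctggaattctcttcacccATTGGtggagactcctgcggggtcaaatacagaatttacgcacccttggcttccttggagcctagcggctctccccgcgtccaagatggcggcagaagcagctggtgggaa
SLC35B4, GRCh38.p14 chr7:134316881-134317180, minus strand: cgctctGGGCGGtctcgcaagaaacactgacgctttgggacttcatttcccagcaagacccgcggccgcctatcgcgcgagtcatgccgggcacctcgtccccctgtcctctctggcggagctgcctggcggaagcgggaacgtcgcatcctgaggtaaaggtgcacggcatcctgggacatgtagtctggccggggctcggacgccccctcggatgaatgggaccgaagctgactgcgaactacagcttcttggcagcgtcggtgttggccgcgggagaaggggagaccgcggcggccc
EXOC4 held 2 matches to CCAAT, both on the opposite strand as ATTGG, and SLC35B4 held 1 match to GGGCGG. Of the 94 members of the lower stretch, 80 had a promoter in the table. TATAAA was found in 2.5% of the 80, CCAAT in 40.0% and GGGCGG in 73.8%. Over the 9583 promoters of all genes of 5 CPM or more the shares were 5.0%, 37.3% and 72.6%, and over all 27305 promoters 12.0%, 35.7% and 44.6%. The matches are letters in a window and name no bound factor.

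**Figure D1:**
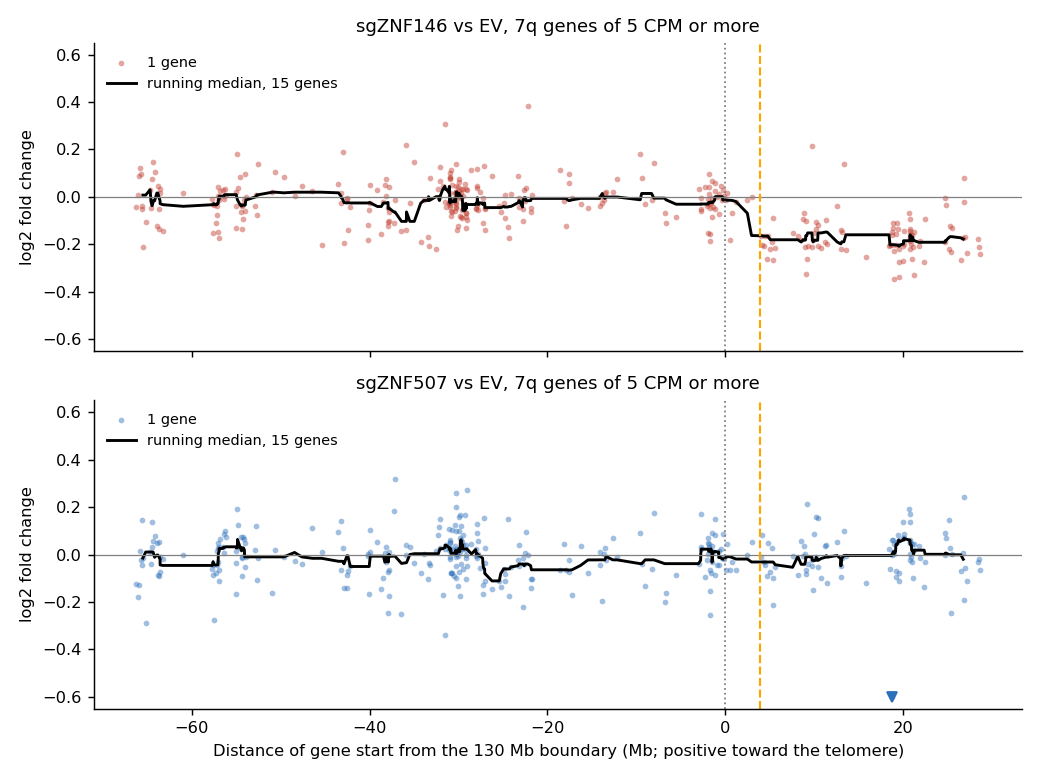
Log2 fold change of each 7q gene of 5 CPM or more in sgZNF146 (upper panel, red) and sgZNF507 (lower panel, blue) against EV, by distance of the gene start from the 130 Mb boundary in Mb, with a running median over 15 neighbouring genes in black. The dotted line marks the boundary, the dashed orange line the midpoint between EXOC4 and SLC35B4, and the triangle RNY1, whose value of −1.11 is below the axis. In sgZNF146 the running median stays between −0.21 and −0.15 from SLC35B4 to NOM1, the last gene that has one, and in sgZNF507 between −0.05 and 0.07.

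The plot along the arm shows the level after the step as flat. The running median over 15 genes stayed between −0.21 and −0.15 in sgZNF146 from SLC35B4 to NOM1, and between −0.10 and 0.04 over 7q below 130 Mb. In sgZNF507 it stayed between −0.05 and 0.07 from SLC35B4 to NOM1 and between −0.11 and 0.06 over 7q below 130 Mb. Genes past NOM1 lie too near the end to have a running median of their own, so 87 of the 94 genes have one. The interquartile range of the sgZNF146 fold changes was 0.08 over the 94 genes of the lower stretch and 0.09 over the 260 genes of 7q below 130 Mb, so the genes spread about as widely around the lower median as around the higher one.

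Windows of 5 Mb gave the same picture in each library. In the first window past 130 Mb, which holds the step, the sgZNF146 median was −0.16 over 13 genes. The 5 windows after it had medians of −0.18, −0.14, −0.20, −0.18 and −0.18, and 18 of 19, 13 of 14, 17 of 17, 25 of 25 and 12 of 13 genes below 0. From 100 to 130 Mb the 6 window medians lay between −0.02 and 0.01. By library, these 5 windows ranged from −0.19 to −0.15 in sgZNF146 replicate 1 and from −0.20 to −0.10 in replicate 2. In sgZNF507 replicate 1 they ranged from −0.09 to 0.07 and in replicate 2 from −0.05 to 0.02. Replicate 1 of sgZNF507 was also low in the windows from 105 to 110, 110 to 115 and 120 to 125 Mb. Its medians there were −0.12 over 18 genes, −0.18 over 8 genes and −0.26 over 8 genes. Replicate 2 of sgZNF507 had 0.01, −0.015 and 0.04 in the same windows. Windows of 8 genes in 1 library therefore varied by as much as the difference in sgZNF146. That difference was present in both sgZNF146 libraries and in each of the 5 windows past the step, in the contrast that chose the members.

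**Figure D2:**
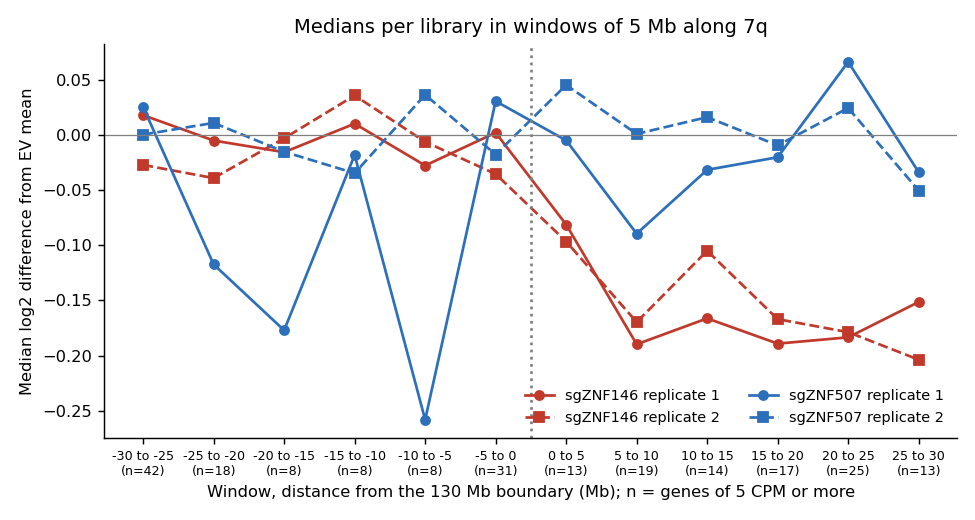
Median log2 difference from the mean of the EV libraries in windows of 5 Mb along 7q, 1 line per library (red sgZNF146, blue sgZNF507, circles replicate 1, squares replicate 2), with the number of genes of 5 CPM or more under each window. The dotted line marks 130 Mb, and both sgZNF146 lines lie at −0.10 or below in every window from 5 Mb past it.

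The lower level was alike in members split by EV level, exon length, distance and strand, and less so by class. Split in 3 by EV level, the 94 members had sgZNF146 medians of −0.18, −0.19 and −0.18 from the lowest to the highest level. Split in 3 by exon length, the medians were −0.18, −0.165 and −0.19 from short to long. Split in 3 by distance from the step, they were −0.18, −0.20 and −0.17. On the plus strand 51 members had a median of −0.18 and on the minus strand 43 members had −0.18. Protein-coding members of the lower stretch that were tested had −0.18 (104 of 119 lower), long non-coding members −0.15 (26 of 37 lower), pseudogenes −0.21 (14 of 18 lower) and misc_RNA members −0.11 (5 of 9 lower). In sgZNF507 the same classes had medians of −0.00, −0.09, 0.13 and 0.10, with 62 of 119, 22 of 37, 4 of 18 and 4 of 9 lower. The 6 long non-coding members of 5 CPM or more had a median of −0.11 in sgZNF146 and −0.11 in sgZNF507. The classes other than protein-coding hold mostly genes of low counts. In sgZNF146 the 89 tested members of the lower stretch under 5 CPM spread over an interquartile range of 0.46 around a median of −0.16. Overlaps bear on this, since 170 members overlap another annotated gene, 80 of them on the same strand, and the strand setting of the counting is not given in the sources used here.

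**Figure D3:**
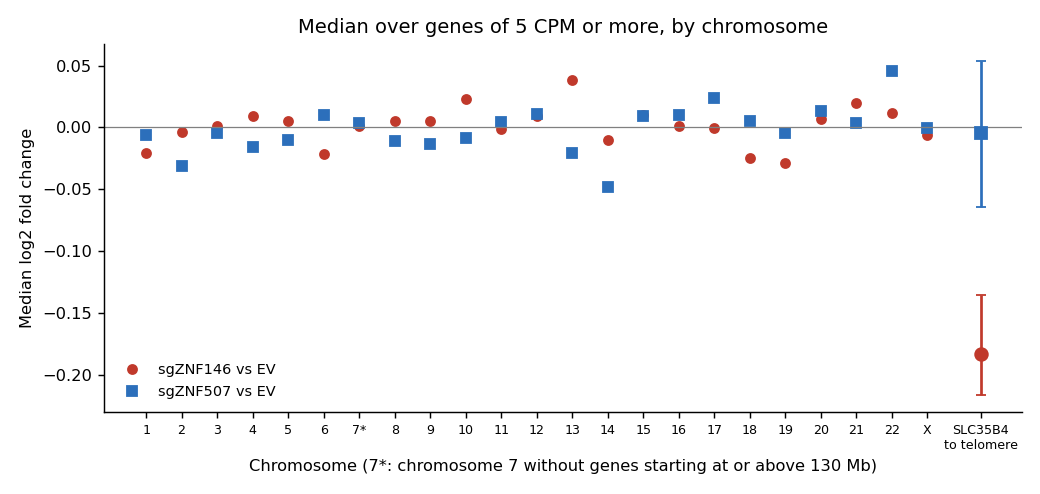
Median log2 fold change over genes of 5 CPM or more by chromosome, red circles for sgZNF146 and blue squares for sgZNF507 against EV, with the members from SLC35B4 to the telomere at the right, where bars show the interquartile range over genes. Chromosome medians lie between −0.03 and 0.04 in sgZNF146 and between −0.05 and 0.05 in sgZNF507, while the members lie at −0.18 and −0.00.

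The medians of whole chromosomes are set beside these values as a reference that was not chosen by its values. Each covers 114 to 1203 genes, and stretches of a like size to the lower stretch on other chromosomes are not given here. In sgZNF146 the 23 chromosomes, with chromosome 7 counted without distal 7q, had medians from −0.03 on chromosome 19 to 0.04 on chromosome 13. In sgZNF507 they ran from −0.05 on chromosome 14 to 0.05 on chromosome 22. The rest of chromosome 7 had 0.01 over 206 genes of 7p and −0.01 over 260 genes of 7q below 130 Mb in sgZNF146. The distal members at −0.18 stood below all of these, as the plot by chromosome shows. They were chosen from this contrast and their edge was found from the same values, so the comparison is a description.

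Summed over all 248 members, the counts made up a smaller share of the sgZNF146 libraries. The share was 0.871% (95% Wilson interval 0.867 to 0.875) and 0.866% (0.863 to 0.870) in EV, 0.746% (0.742 to 0.749) and 0.781% (0.777 to 0.784) in sgZNF146, and 0.880% (0.877 to 0.884) and 0.888% (0.884 to 0.891) in sgZNF507. The intervals cover counting error only. The 2 sgZNF146 libraries lay below the other 4 and differed from each other by more than the EV libraries did. As means ± SD (n = 2) the shares were 0.869% ± 0.00346, 0.763% ± 0.0250 and 0.884% ± 0.00504, a change from EV of −12.1% in sgZNF146 and of 1.76% in sgZNF507. For sgZNF507 the exact permutation test gave p = 0.333, two-sided, the smallest value that 2 libraries against 2 can reach, and scaled by the TMM library size the difference was −0.0571%, the opposite sign. In sgZNF146 the 227 members from SLC35B4 on differed from EV by −12.5% and the 21 before it by −2.56%, beside −2.06% for 7q below 130 Mb and −0.872% for 7p. The 5 members with the most counts held 17.6% of the member counts.

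**Figure D4:**
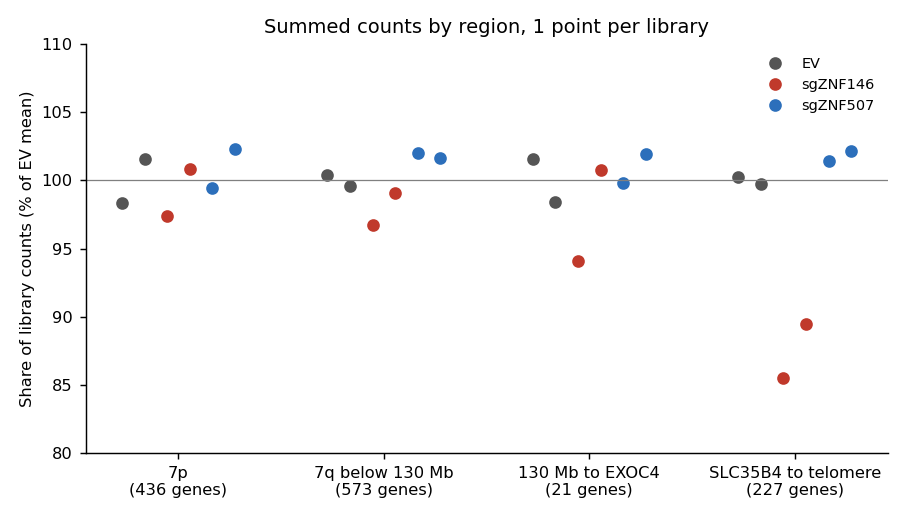
Share of library counts in 4 regions of chromosome 7 as a percent of the EV mean, 1 point per library (grey EV, red sgZNF146, blue sgZNF507), on an axis that starts at 80. In the region from SLC35B4 to the telomere both sgZNF146 points lie at least 10% below the EV mean, and in the other 3 regions they lie within 6% of it.

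Of the 10 protein-coding members with the highest CPM, 9 lay close to the common value. NUP205, a scaffold protein of the nuclear pore, had 364 and 339 CPM in EV, 305 and 311 CPM in sgZNF146 and 359 and 357 CPM in sgZNF507, a log2 fold change of −0.19 ± 0.06 SE in sgZNF146. HIPK2, a nuclear kinase that acts on p53, had 308 and 324 CPM in EV, 271 and 277 CPM in sgZNF146 and 301 and 313 CPM in sgZNF507 (−0.21 ± 0.06 SE). AKR1B1, the aldose reductase, had 190 and 198 CPM in EV, 168 and 169 CPM in sgZNF146 and 208 and 203 CPM in sgZNF507 (−0.20 ± 0.06 SE). In all 3 genes the sgZNF146 libraries lay below the 4 others, while those of sgZNF507 overlapped or exceeded EV.
KMT2C had 317 and 291 CPM in EV, 272 and 263 CPM in sgZNF146 and 305 and 296 CPM in sgZNF507. UBE3C, a ubiquitin ligase that assists the proteasome, had 254 and 250 CPM in EV, 227 and 222 CPM in sgZNF146 and 241 and 243 CPM in sgZNF507. Of the other genes at the top, PDIA4 (a protein disulfide isomerase), SLC4A2 (an anion exchanger), ABCF2 (an ABC family ATPase) and REPIN1 (a zinc finger protein) had log2 fold changes from −0.20 to −0.16 in sgZNF146, each with both libraries below EV. RBM33, an RNA-binding protein, had 231 and 219 CPM in EV and 217 and 194 CPM in sgZNF146 (−0.13 ± 0.07 SE), where the lower EV library and the higher sgZNF146 library stood close together. Without sgZNF146 replicate 2 its value was −0.05, and without sgZNF146 replicate 1 it was −0.21.

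**Figure D5:**
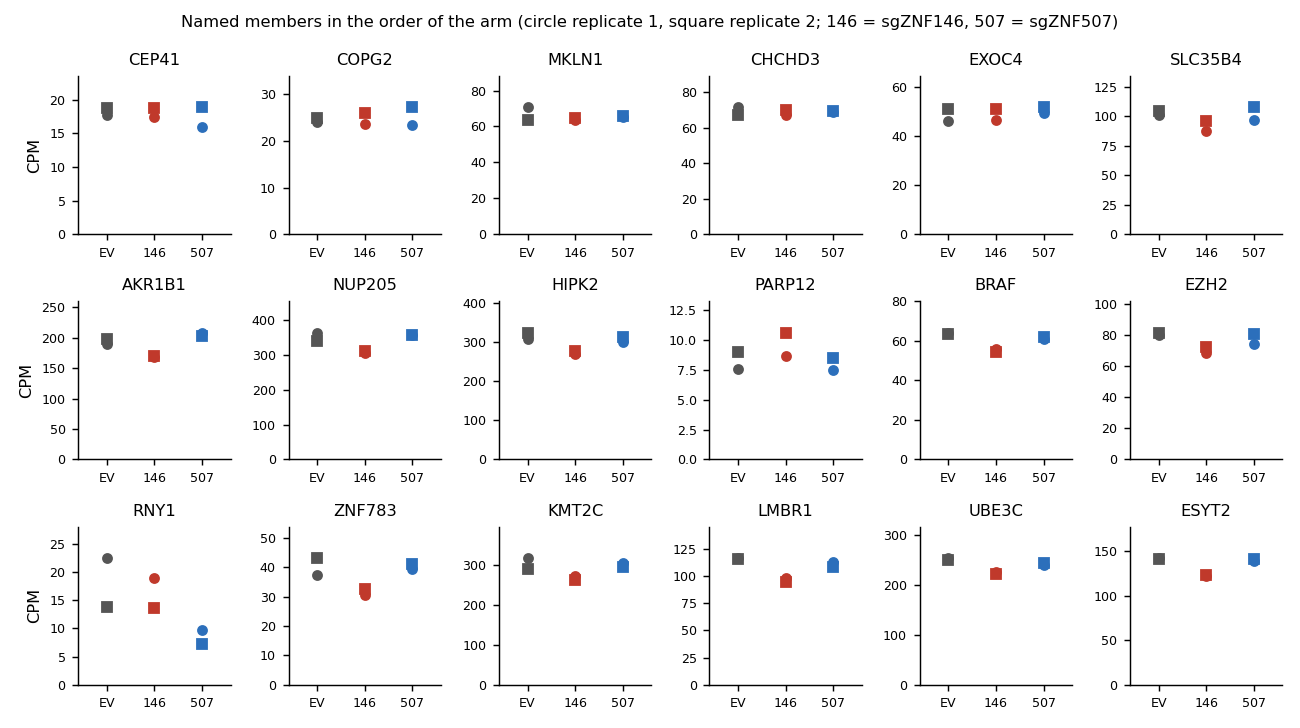
CPM of 18 named members in the order of the arm, 1 point per library (circles replicate 1, squares replicate 2) in EV, sgZNF146 and sgZNF507, each panel on its own axis from 0. From SLC35B4 on, the sgZNF146 points lie below the EV points in all panels shown except PARP12 and RNY1, and before SLC35B4 the EV and sgZNF146 points overlap.

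The panels of single genes show how small the difference is beside each gene's level and that it recurs from gene to gene. Grouped by function, the members had a median below 0 in sgZNF146 in every list of more than 1 gene. The members were chosen from this contrast, so these medians and the sgZNF146 counts below say nothing about function. Of all members of 5 CPM or more 96 of 101 were lower in sgZNF146, beside 51.9% of all genes of that level. In sgZNF507 54 of 101 were lower, beside 51.2%. Without a replicate block no gene of any list passed the test in sgZNF146 or in sgZNF507. The counts by list below are of genes of 5 CPM or more. Over all tested genes of the lists, 13 of 14 zinc finger genes, 16 of 16 chromatin regulators, 12 of 14 genes of protein quality, 8 of 10 kinases and signalling genes, 14 of 14 genes of mitochondria and metabolism and 8 of 11 neuronal or tissue-restricted genes were below 0 in sgZNF146. Those above 0 in the first 5 of these lists were ZNF467, COPG2, EXOC4, DGKI and EPHA1, of which ZNF467, DGKI and EPHA1 were under 5 CPM. Of the zinc finger genes of 5 CPM or more 12 of 12 were lower in sgZNF146, at a median of −0.18, and 11 had both libraries below EV, beside 68 of 94 in the whole lower stretch and 14.1% of all genes of that level. In sgZNF507 the same list had 4 of 12 lower and a median of 0.03. ZNF783 had 37.4 and 43.1 CPM in EV, 30.7 and 32.6 CPM in sgZNF146 and 39.4 and 41.3 CPM in sgZNF507, and it was the lowest member of this level in sgZNF146 (−0.35 ± 0.09 SE). It overlaps other annotated genes on both strands. ZNF212 had 39.5 and 36.4 CPM in EV and 32.5 and 32.2 CPM in sgZNF146 (−0.23 ± 0.09 SE), and ZNF282, a repressor of a viral promoter, had 149 and 155 CPM in EV and 134 and 148 CPM in sgZNF146 (−0.11 ± 0.07 SE).

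Chromatin and transcription regulators were lower in 15 of 15 genes of 5 CPM or more in sgZNF146, with a median of −0.19, and in 11 of 15 in sgZNF507, with a median of −0.02. EZH2 had 80.6 and 81.7 CPM in EV, 68.8 and 72.3 CPM in sgZNF146 and 74.8 and 80.6 CPM in sgZNF507 (−0.20 ± 0.07 SE in sgZNF146). SMARCD3, a subunit of BAF chromatin remodelling complexes, had 30.6 and 29.0 CPM in EV, 24.8 and 24.9 CPM in sgZNF146 and 31.6 and 26.8 CPM in sgZNF507 (−0.26 ± 0.10 SE). Both genes had sgZNF146 libraries below all others. XRCC2, a DNA repair gene, differed more between replicates, with 107 and 89.0 CPM in EV, 85.0 and 77.3 CPM in sgZNF146 and 90.8 and 87.5 CPM in sgZNF507 (−0.27 ± 0.09 SE). The exception in size was MNX1, a homeobox gene of motor neurons, with 42.4 and 38.1 CPM in EV, 39.9 and 39.3 CPM in sgZNF146 and 51.2 and 43.98 CPM in sgZNF507. Its sgZNF146 libraries lay between those of EV.

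Genes of protein quality control and trafficking were lower in 11 of 13 of that level in sgZNF146, with a median of −0.19, and in 7 of 13 in sgZNF507, with a median of −0.01. The 2 that were not lower, COPG2 and EXOC4, both lie before the step. LMBR1, a membrane receptor gene whose intron holds an enhancer of SHH, had 117 and 116 CPM in EV, 98.7 and 94.9 CPM in sgZNF146 and 113 and 109 CPM in sgZNF507 (−0.26 ± 0.06 SE). CUL1, the cullin of SCF ubiquitin ligases, had 119 and 114 CPM in EV and 97.4 and 104 CPM in sgZNF146 (−0.21 ± 0.07 SE). DNAJB6, a chaperone of the HSP40 family, had 182 and 174 CPM in EV, 161 and 142 CPM in sgZNF146 and 167 and 163 CPM in sgZNF507 (−0.24 ± 0.07 SE). INSIG1, a brake on cholesterol synthesis, had 97.9 and 74.5 CPM in EV, 83.1 and 64.9 CPM in sgZNF146 and 109 and 82.3 CPM in sgZNF507. Its replicates differed by more than its groups, so that the groups overlapped. Replicate 1 was the higher in every group, and at each replicate number sgZNF146 was below EV and sgZNF507 above it. The labels do not say what a replicate number marks.

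Kinases and signalling genes of 5 CPM or more were lower in 8 of 8 in sgZNF146 (median −0.145) and in 3 of 8 in sgZNF507 (median 0.03). BRAF had 64.0 and 63.5 CPM in EV, 55.9 and 54.6 CPM in sgZNF146 and 61.2 and 61.9 CPM in sgZNF507 (−0.21 ± 0.07 SE). PRKAG2, a regulatory subunit of AMP-activated kinase, had 22.4 and 21.8 CPM in EV, 17.2 and 18.0 CPM in sgZNF146 and 24.3 and 20.5 CPM in sgZNF507 (−0.33 ± 0.11 SE). In both genes the sgZNF146 libraries stood below the other 4. RHEB, the GTPase that activates mTORC1, had 57.2 and 58.2 CPM in EV and 52.0 and 52.2 CPM in sgZNF146 (−0.15 ± 0.07 SE).

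Genes of mitochondria and metabolism of 5 CPM or more were lower in 12 of 12 in sgZNF146 (median −0.18) and in 4 of 12 in sgZNF507 (median 0.04). SSBP1, the DNA-binding protein of mitochondrial replication, had 118 and 119 CPM in EV, 105 and 102 CPM in sgZNF146 and 110 and 108 CPM in sgZNF507 (−0.20 ± 0.06 SE), and it overlaps taste receptor genes on its own strand. ABCB8, a transporter of the inner mitochondrial membrane, had 87.7 and 95.3 CPM in EV and 75.5 and 81.7 CPM in sgZNF146 (−0.22 ± 0.07 SE). The member of this list with the smallest difference, CHCHD3, lies before the step (−0.01 ± 0.07 SE).

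The remaining lists were short. Of 5 genes of RNA binding and translation 4 were lower in sgZNF146 (median −0.10), and the one that was higher was PARP12, an interferon-induced ADP-ribosyltransferase, with 7.59 and 8.97 CPM in EV, 8.67 and 10.6 CPM in sgZNF146 and 7.51 and 8.49 CPM in sgZNF507. It was the highest member of 5 CPM or more in sgZNF146 (0.22 ± 0.15 SE), and its groups overlapped, though at each replicate number sgZNF146 was the higher. LUC7L2, a splicing factor, had 93.7 and 102 CPM in EV and 94.2 and 88.2 CPM in sgZNF146 (−0.10 ± 0.07 SE), and its neighbour FMC1, an assembly factor of ATP synthase that overlaps it on the same strand, had 8.998 and 11.8 CPM in EV and 8.79 and 7.83 CPM in sgZNF146 (−0.33 ± 0.15 SE). Without EV replicate 2 the value of FMC1 was −0.12, and without EV replicate 1 it was −0.51. Of 3 neuronal or tissue-restricted genes of 5 CPM or more, 3 were lower in sgZNF146 (median −0.16), among them CNTNAP2, a neuronal adhesion protein, with 27.9 and 26.5 CPM in EV and 24.9 and 20.8 CPM in sgZNF146 (−0.25 ± 0.10 SE). The list of imprinted genes around MEST had 1 member, COPG2 (0.02 ± 0.10 SE in sgZNF146).

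Beside PARP12, the members of 5 CPM or more that were not lower in sgZNF146 were TCAF2, MNX1-AS1, COPG2 and EXOC4. TCAF2, a regulator of the TRPM8 channel, had 6.71 and 6.95 CPM in EV and 7.29 and 7.75 CPM in sgZNF146 (0.14 ± 0.14 SE), and it was the 1 member of this level with both libraries above EV. MNX1-AS1, a long non-coding RNA beside MNX1, had 5.26 and 5.93 CPM in EV and 5.91 and 5.92 CPM in sgZNF146 (0.08 ± 0.17 SE). At the other end, ZNF862 had 9.76 and 9.80 CPM in EV and 6.78 and 8.70 CPM in sgZNF146 (−0.34 ± 0.16 SE), and SSPOP, a pseudogene of SCO-spondin, had 10.2 and 7.92 CPM in EV and 8.35 and 6.56 CPM in sgZNF146 (−0.27 ± 0.17 SE). TCAF2, MNX1-AS1, ZNF862 and SSPOP had low counts, and their SE was about as large as the common difference. With 1 library left out ZNF862 ranged from −0.53, without sgZNF146 replicate 2, to −0.17, without sgZNF146 replicate 1, and SSPOP from −0.46, without sgZNF146 replicate 1, to −0.09, without EV replicate 1.

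The lower level reached the last genes before the telomere. NCAPG2, a condensin II subunit, had 197 and 175 CPM in EV, 167 and 162 CPM in sgZNF146 and 184 and 180 CPM in sgZNF507 (−0.18 ± 0.07 SE). ESYT2, a tether between the endoplasmic reticulum and the plasma membrane, had 142 and 142 CPM in EV, 122 and 123 CPM in sgZNF146 and 139 and 141 CPM in sgZNF507 (−0.21 ± 0.06 SE). DYNC2I1, an intermediate chain of ciliary dynein 2, had 51.3 and 54.7 CPM in EV, 45.4 and 44.3 CPM in sgZNF146 and 46.9 and 54.3 CPM in sgZNF507 (−0.24 ± 0.09 SE). In all 3 genes both sgZNF146 libraries were below both EV libraries. Past DYNC2I1, the overlapping pair LINC00689 and VIPR2, the latter a receptor for the neuropeptide VIP, had 12 to 33 counts per library. Their fold changes of 0.71 ± 0.40 SE and −0.73 ± 0.37 SE pointed in opposite directions at that depth.

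In sgZNF507 the member farthest from EV was RNY1, a small non-coding RNA of Ro ribonucleoprotein particles. Its sequence is given because it is the 1 member that came near the threshold in the contrast that did not choose the members.
RNY1, GRCh37 chr7:148684228-148684340, minus strand, 113 bases: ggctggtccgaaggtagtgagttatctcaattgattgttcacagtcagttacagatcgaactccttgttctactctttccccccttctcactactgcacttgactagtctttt
RNY1 had 558 and 379 counts in EV, 481 and 340 in sgZNF146 and 222 and 209 in sgZNF507, or 22.4 and 13.7, 18.9 and 13.5, and 9.63 and 7.21 CPM. Both sgZNF507 libraries lay below the other 4, and the EV libraries differed from each other by more than the sgZNF507 libraries did. Replicate 1 was the higher in every group. The log2 fold change was −1.11 ± 0.23 SE with an adjusted p of 0.142 by edgeR, so the gene did not pass. With the replicate number as a block it passed (−1.08, adjusted p = 4.08e-10 by edgeR). Without EV replicate 2 it passed (−1.42, adjusted p = 0.0311 by edgeR), and without EV replicate 1 it did not (−0.71, adjusted p = 0.996). Over all settings tried the adjusted p ranged from 8.36e-13, with no filter on low counts, to 1.00, with DESeq2 on 6 libraries. RNY1 resembles other Y RNA genes and pseudogenes, so reads may be shared with copies elsewhere. RNY5, a Y RNA gene in the same cluster, had 0 to 5 counts per library and was not tested.

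The other members at the ends of the sgZNF507 range did not pass either. The next lowest of 5 CPM or more were RBM33-DT, a long non-coding RNA transcribed away from RBM33, with 10.5 and 9.77 CPM in EV and 8.12 and 8.91 CPM in sgZNF507 (−0.25 ± 0.14 SE), SLC13A4, a sulfate transporter, with −0.21 ± 0.17 SE, MNX1-AS1 with −0.19 ± 0.17 SE and KDM7A-DT with −0.15 ± 0.17 SE. The highest was MNX1 (0.24 ± 0.09 SE, adjusted p = 1.00 by edgeR), whose sgZNF507 libraries both lay above EV. KLRG2, a lectin-like gene, had 11.9 and 12.7 CPM in EV and 14.3 and 14.4 CPM in sgZNF507 (0.21 ± 0.11 SE), CDK5, a kinase active in neurons, had 44.03 and 47.9 CPM in EV and 53.6 and 49.9 CPM in sgZNF507 (0.17 ± 0.08 SE), and KCNH2, a potassium channel, and DENND2A, a Rab exchange factor, had 0.19 ± 0.15 SE and 0.16 ± 0.13 SE. The 6 members with an unadjusted p of 0.05 or less in sgZNF507 were RNY1, MNX1, ADCK2 (0.15 ± 0.07 SE), AGK-DT (−1.08 ± 0.34 SE), ST13P7 (−0.52 ± 0.24 SE) and RN7SL142P (0.86 ± 0.36 SE), the last 4 named after their values were seen.

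Set directly against each other, sgZNF507 exceeded sgZNF146 by a median log2 value of 0.15 over the 202 tested members. Here edgeR called 0 of 202 where 0.173% of all genes were called, while DESeq2 called 1 and edgeR without a filter on low counts called 5. With the replicate number as a block edgeR called 23 and DESeq2 called 7. At an unadjusted p of 0.05 there were 49 members, 48 of them higher in sgZNF507, beside 4.03% of all genes in either direction and 1.87% in that one, and DESeq2 gave 37. This contrast shares the sgZNF146 libraries with the one that chose the members, so it is a description as well. For the DESeq2, unfiltered and blocked counts no share over all genes is given here, so nothing is read from them.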

How the data were processed

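RNA-seq libraries of HEK293 cells, 2 per group, were compared. The authors clipped reads (Fastx Toolkit), removed ribosomal reads (Bowtie), aligned to hg19 (TopHat2) and counted per Ensembl gene (featureCounts), and deposited whole-number counts without normalization or pooling. PCR duplicates were not marked by molecular identifiers. Positions, classes and symbols came from GENCODE on GRCh37, which matched 96.1% of 57773 identifiers.

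Counts were filtered (filterByExpr), scaled (TMM) and fitted over 6 libraries with edgeR 4.0.16 (R 4.3.3, glmQLFit and glmQLFTest, Benjamini-Hochberg over 22010 genes, threshold 0.05). SE were derived from the F statistic. DESeq2 1.42.0 was an alternative. In counts simulated from these libraries for sgZNF507 against EV, 153 of 200 genes changed 2-fold were recovered among 21875 tested, with 5 other calls. A change of 2-fold is far larger than the common sgZNF146 difference, and changes of that smaller size were not simulated. Library differences in windows used log2 CPM with a prior count of 2.

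The members and lists were chosen with earlier results of these data known. Named were any member called, the 10 protein-coding members of highest CPM, the 5 lowest and highest fold changes in each contrast among members of 5 CPM or more, genes at the edges and list genes. Other settings are given in the closing section. LINE-1 expression, indels and other assays were not analysed here.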

Additional observations from a re-analysis of the deposited data

How the results depend on the processing

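The median over the tested members stayed below 0 in sgZNF146 and near 0 in sgZNF507 under all scalings, filters and tests tried. In sgZNF146 it was −0.18 over members of 5 CPM or more and −0.18 without the first 5 Mb, and leaving out 1 library at a time gave −0.1761 to −0.1606. In sgZNF507 leaving out 1 library gave −0.0149 to 0.0128. In sgZNF507 against sgZNF146 it was 0.17 over protein-coding members, 0.16 without the first 5 Mb and 0.17 from summed CPM, and 0.1537 to 0.168 with 1 library left out. The share of counts in sgZNF146 was −14.16% to −10.09% relative to EV with 1 library left out, and that in sgZNF507 turned to −0.0571% with TMM library sizes.

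Counts of called members moved more. Without a filter 1 member was called in sgZNF507 (RNY1) and 5 in sgZNF507 against sgZNF146, where DESeq2 called 1, and leaving out 1 library gave 0 to 1 calls in sgZNF507. The labels do not say whether a replicate number marks a shared day, and deviations of same-numbered libraries correlated at r of 0.138 to 0.176 over 2 pairs per contrast. With the replicate number as a block, edgeR called 4 members in sgZNF146 (ZNF783, XRCC2, LMBR1 and DNAJB6), 1 in sgZNF507 (RNY1) and 23 in sgZNF507 against sgZNF146, and DESeq2 called 0, 1 and 7. The cause of these moves was not tested, and shares of all genes called under these settings are not given here.

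Of the values of single genes, 830 kept their direction and side of the threshold, 8 passed it, all in ZNF783, XRCC2, LMBR1, DNAJB6 and RNY1, and 16 changed sign. With 1 library left out, 32 of 61 moved by over 1.5 times, INSIG1 for example from −0.4087 to −0.0109. The changes of sign were in genes that did not pass. In sgZNF146, with 1 library left out, CEP41 ranged from −0.0687 to 0.0392, COPG2 from −0.0522 to 0.0829, MKLN1 from −0.145 to 0.0043, PODXL from −0.0688 to 0.0247, CHCHD3 from −0.066 to 0.0309, EXOC4 from −0.0709 to 0.071 (−0.0022 with no filter) and MNX1-AS1 from −0.0048 to 0.1634. In sgZNF507 SLC13A4 ranged from −0.4364 to 0.0082, MNX1-AS1 from −0.3901 to 0.0097, KDM7A-DT from −0.3296 to 0.0439 and KCNH2 from −0.0113 to 0.3875. Depth limits the 46 untested members and those under 5 CPM, and 2 libraries per group give a poor estimate of the spread for any gene. For the shares of counts, the exact permutation test cannot go below p = 0.333 with 2 libraries against 2.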
